A study of Mus musculus with 11 samples.

Results

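The cytosolic ribosomal protein genes were described here in cerebellar granule cell precursors (GCps) with and without the chromatin remodeller CHD7. Members were the protein-coding genes whose symbols begin with Rpl or Rps and a digit, together with Rplp0, Rplp1, Rplp2 and Rpsa. Symbols ending in -ps and the ribosomal protein S6 kinase genes (Rps6k) were left out. In this way 86 of the 38924 genes listed in each count file qualified, 52 named for the large (60S) subunit and 33 for the small (40S) subunit. Rps19bp1 qualified by name only, since it encodes a binding partner of RPS19 and not a ribosomal protein. Of the 86 genes, 77 were core members (46 of the 60S and 31 of the 40S subunit), and the other 9 were paralogs, duplicates or tissue-restricted forms and Rps19bp1. Members lay on 19 chromosomes.

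RNA was sequenced from GCps of postnatal day 7 (P7) mice of the C57Bl/6J strain background. The cko mice carried Math1-Cre and floxed Chd7 on both alleles (2 libraries), and control mice were Chd7 flox/+ by their sample labels (2 libraries), although the submitters' extraction notes give the control genotype as floxed on both alleles without Cre. Math1 regulatory sequence drives Cre in the granule cell lineage, so cells of other types in the preparation keep Chd7. By the study's methods, cerebella of each genotype were pooled after removal of lobules IX and X, and GCps were enriched on a Percoll gradient. The sources do not say whether the replicates of a genotype came from separate pools. The p-values rest on the spread of these 4 libraries. The cko libraries differed in Xist and Ddx3y and so came from different mice, while the spread between the control libraries may be technical.

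Each cytosolic ribosome is built from a small subunit, which reads the messenger RNA, and a large subunit, which forms the peptide bonds and carries the exit tunnel. Most of their proteins are present in 1 copy per subunit, and their mRNAs are among the most abundant of dividing cells. Ribosomal protein mRNAs typically begin with a cytidine and a run of pyrimidines, the 5′ terminal oligopyrimidine (TOP) tract, through which mTORC1 and LARP1 control their translation. These mRNAs have also been copied back into the genome many times, and most of the copies are processed pseudogenes. GCps proliferate in the early postnatal cerebellum in response to Sonic hedgehog, and the paper asked which genes they express differently without CHD7.

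The libraries held 73480074 and 62437759 counts in cko 1 and cko 2, and 77346481 and 61836588 in control 1 and control 2. Mitochondrial genes took 1.86% and 3.80% of the counts in cko libraries and 2.14% and 3.41% in control libraries, more in both second replicates. The 10 GCp markers (among them Atoh1, Barhl1 and Zic1) were all above 0 and summed to 5427 and 5965 CPM (gene counts brought to a common library size) in cko libraries against 5722 and 5756 CPM in control libraries. A list of 10 skeletal muscle markers summed to 43.8 and 72.0 CPM in cko libraries against 14.7 and 13.2 CPM in control libraries, with all 10 above 0 in every library and 5 called higher in cko by edgeR. The 10 endothelial markers summed to 410 and 420 CPM in cko libraries against 311 and 271 CPM in control libraries, with none at 0. Oligodendrocyte lineage markers (411 and 431 CPM in cko libraries against 376 and 335 CPM in control libraries) and Purkinje cell and interneuron markers (103 and 97.9 CPM in cko libraries against 74.4 and 82.0 CPM in control libraries) were also above control in both cko libraries. Markers of astrocytes and Bergmann glia were below control in both (696 and 717 CPM in cko libraries against 836 and 904 CPM in control libraries). Of these 3 lists, 1 oligodendrocyte marker was called. The part of these differences in the values below was not tested. Xist, the RNA of the inactive X chromosome, had 793 CPM in cko 1 and under 1 CPM in the remaining 3. Ddx3y, from the Y chromosome, had 0 CPM in cko 1 and 63.7 to 69.1 CPM in the others. By these genes cko 1 was female and the other libraries male, and no library showed a mixture of sexes. Sex was therefore not balanced between the genotypes, and its part in the values below was not tested. Chd7 had 392.5 and 354.8 CPM in cko libraries against 322 and 319 CPM in control libraries. These are counts over the whole gene and do not check the deletion.

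No ribosomal protein gene passed the test between cko and control GCps. Library sizes for CPM were scaled with TMM factors. A gene was called when edgeR's quasi-likelihood test, with Benjamini-Hochberg adjustment over all genes, gave an adjusted p under 0.05. Of the 86 members, 83 had enough counts to be tested and 0 were called, against 1.58% of all 16436 genes tested (0.809% higher and 0.773% lower in cko). DESeq2 called 0 of the 83 members to which it gave an adjusted p, against 5.6% of all genes, and 1 of 85 had an unadjusted p under 0.05, against 8.98%. An unadjusted p under 0.05 was reached by 1 of the 83 members, Rps18, against 13.6% of all genes. The lowest edgeR adjusted p of any member was 0.351.

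The fold changes were small throughout. Their median over 83 members was -0.02 on the log2 scale (cko over control), beside -0.0006 over all genes tested, and they ran from -0.48 (Rpl26) to 0.28 (Rps18). Of the 83 estimates, 72 lay within 0.1 and 82 within 0.3 of 0, while 29 were above 0 and 54 below. The median was -0.02 for the 46 core 60S members and -0.02 for the 31 core 40S members. A p that misses the threshold does not show that levels were equal, so the interval of each difference was read too. The 95% interval of the fold change lay within a 1.5-fold change in either direction for 73 of 83 members, against 51.7% of all genes, and within a 2-fold change for 79 members. It reached beyond 2-fold for Rpl22l1, Rpl26, Rpl34 and Rpl35a, and beyond 1.5-fold also for Rpl27, Rpl30, Rpl36al, Rpl39, Rps14 and Rps21. The share of all genes was not matched for level, and 62 core members were among the 500 genes with the most counts. The contrast with 51.7% therefore does not show that members were steadier than other genes of their level. The counts within 2-fold and within 0.1 and 0.3 of 0 were not set against all genes.

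**Figure D1:**
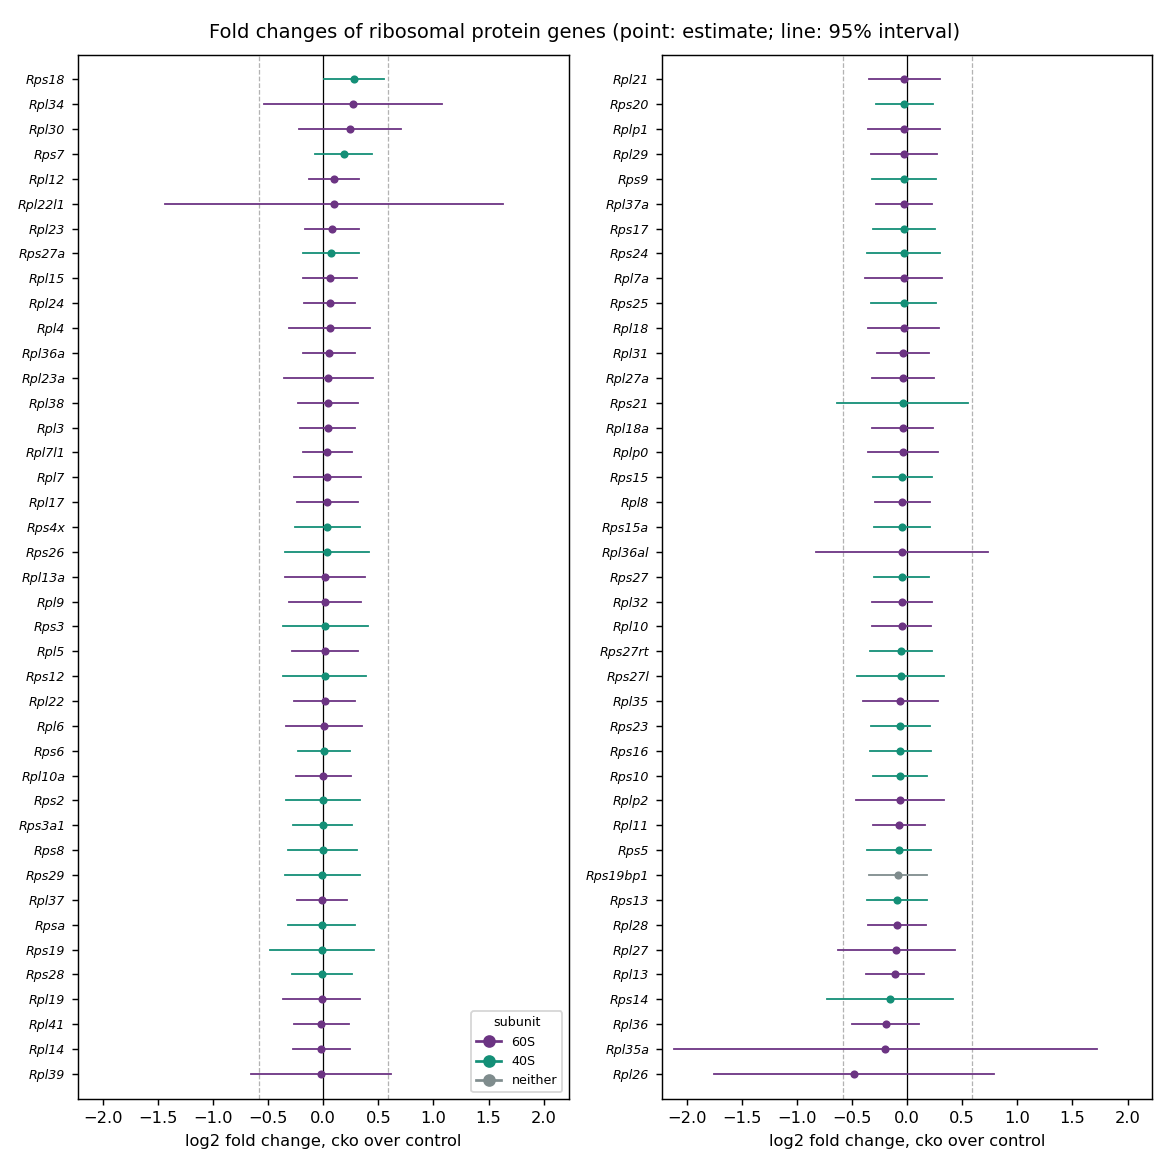
Log2 fold change (cko over control) of 82 ribosomal protein genes, ordered from the highest (top left) to the lowest (bottom right), with lines for 95% intervals, dashed lines at a 1.5-fold change and colours for the subunit. Estimates run from 0.28 for Rps18 to -0.48 for Rpl26, and most lie within 0.1 of 0.

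As a share of the library, members took 4.44% and 4.36% of all counts in cko libraries and 4.42% and 4.14% in control libraries. The means were 4.40% ± 0.058 in cko and 4.28% ± 0.197 in control (SD, n = 2 each), so the genotypes overlapped, and without mitochondrial counts in the total they no longer did (4.524% and 4.530% in cko libraries against 4.519% and 4.290% in control libraries). Here 2 libraries against 2 cannot give an exact permutation p below 0.3333. In bulk RNA, fewer cells of a type and less RNA per cell cannot be told apart. The ratio of 60S to 40S member counts was 1.29 and 1.31 in cko libraries against 1.27 and 1.33 in control libraries. The genotypes overlapped in this ratio too.

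Among 60S members, the acidic stalk proteins, which recruit translation factors to the ribosome, had estimates of -0.04 (Rplp0, the base of the stalk), -0.03 (Rplp1) and -0.07 (Rplp2). Rplp0 had 1271 and 1522 CPM in cko libraries and 1373 and 1502 CPM in control libraries, and the genotypes overlapped. Rpl5 and Rpl11, which carry the 5S RNA into the ribosome and bind MDM2 when assembly fails, had log2 fold changes of 0.02 and -0.07. Rpl5 had 706 and 836 CPM in cko libraries against 726 and 799 CPM in control libraries. Rpl11 had 452 and 435 CPM in cko libraries against 484 and 449 CPM in control libraries. Rpl3, a protein of the peptidyl transferase centre, differed by 0.04 and Rpl4, which lines the exit tunnel, by 0.06. None of these differences passed the test, with edgeR adjusted p-values from 0.842 (Rpl11) to 0.981 (Rpl5).

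Among 40S members, Rps6, the substrate of S6 kinases, had 571 and 603 CPM in cko libraries against 580 and 590 CPM in control libraries. Its log2 fold change was 0.01 (standard error 0.10), and the control values lay within the range of the cko values. Rpsa, which is also known as the laminin receptor, had 1362 and 1584 CPM in cko libraries against 1424 and 1549 CPM in control libraries. Rps3, near the mRNA entry channel, had 908 and 751 CPM in cko libraries against 924 and 716 CPM in control libraries. In all of these the replicates of 1 genotype stood further apart than the genotype means. Rps27a, made as a fusion with ubiquitin, differed by 0.07 on the log2 scale.

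The 4 X-linked members (Rpl10, Rpl36a, Rpl39 and Rps4x) had estimates from -0.05 to 0.05, and cko 1 was the only library with Xist at more than 1 CPM. Rps4x had 1063 and 1257 CPM in cko libraries against 1135 and 1128 CPM in control libraries, so its 2 extremes were both cko libraries. The 17 members whose human counterparts are mutated in Diamond-Blackfan anaemia, a failure of red cell production, had a median of -0.03 and a range of -0.48 (Rpl26) to 0.19 (Rps7), with 0 called.

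The 5 highest estimates belonged to Rps18, Rpl34, Rpl30, Rps7 and Rpl12. Rps18, a protein of the 40S head, had 532 and 459 CPM in cko libraries against 393 and 423 CPM in control libraries. The genotypes did not overlap, and its log2 fold change was 0.28 (standard error 0.11, edgeR adjusted p = 0.351). Rps7, also of the 40S subunit, had 622 and 658 CPM in cko libraries against 532 and 594 CPM in control libraries, a log2 fold change of 0.19 (standard error 0.11, edgeR adjusted p = 0.558). Again both cko libraries were above both control libraries. Rpl12, at the base of the stalk, had 457 and 471 CPM in cko libraries against 438 and 427 CPM in control libraries, a log2 fold change of 0.10. These were the only 3 of 83 members with both cko libraries above both control libraries, against 22.7% of all genes, and Rps19bp1 was the only 1 with both below, against 21.2%.

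Without cko 1 the estimate of Rps18 was 0.18, and without control 1 that of Rps7 was 0.11. Rpl34 and Rpl30 depended on single libraries further. Rpl34 had 378 and 218 CPM in cko libraries against 281 and 214 CPM in control libraries, so that cko 2 lay close to control 2. Its log2 fold change of 0.27 (standard error 0.30) became -0.17 without cko 1. Rpl30, whose protein binds its own pre-mRNA in yeast, had 482 and 387 CPM in cko libraries against 428 and 306 CPM in control libraries. Its estimate was 0.24 (standard error 0.19) and became 0.02 without control 2.

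The 4 lowest estimates were those of Rpl26, Rpl35a, Rpl36 and Rps14. Rpl26, which lies near the mouth of the exit tunnel, had 186 and 254 CPM in cko libraries against 199 and 416 CPM in control libraries. Only control 2 stood apart, and the estimate of -0.48 (standard error 0.44) became 0.14 without it. Rpl35a, a 60S member, had 261 and 97.7 CPM in cko libraries against 229 and 182 CPM in control libraries, so both the highest and the lowest value came from cko. Its estimate was -0.20 (standard error 0.59, edgeR adjusted p = 0.943), and without cko 1 it became -1.07 with an edgeR adjusted p of 0.0370, the only call of any member under any setting tried. Without cko 2 it was 0.34.

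The remaining low estimates had overlapping groups as well. Rpl36 had 202 and 187 CPM in cko libraries against 247 and 198 CPM in control libraries, a log2 fold change of -0.19 that became -0.03 without control 1. Rps14, whose loss of 1 copy marks a human myelodysplastic syndrome, had 497 and 351 CPM in cko libraries against 548 and 394 CPM in control libraries, with the first replicate above the second in each genotype.

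How reads were shared between members and their copies bore on several of these genes. Of the distinct 50-base stretches in a member's exons, a median of 42.1% (range 0% to 98.5%) occurred identically elsewhere in the GRCm38 genome, and 32 of 86 members had more than 50% of their stretches copied. Copies were found for 82 members, 681 in all when counted for each member, with the most, 58, for Rpl21. A locus shared between members counts for each of them, and loci of related genes were not left out. The count files list 407 annotated pseudogene and noncoding rows that share such stretches with 71 members. For 5 members the counts of the copies stood apart in 1 library, at least 3-fold and 10 CPM away from the other 3 (a rule set after seeing the values). They were Rpl26 in control 2, Rpl34, Rps7 and Rps13 in cko 1, and Rps18 in control 1.

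The coding sequence of each of these members was set against that of the copy whose counts differed most between libraries. They are shown because so few bases tell gene from copy. The coding bases that differed were 2 of 435 for Rpl26 and Gm15772, 2 of 351 for Rpl34 and Rpl34-ps1, 4 of 456 for Rps18 and Gm26619, 3 of 582 for Rps7 and Gm6472, and 2 of 453 for Rps13 and Rps13-ps1. Stretches of 60 coding bases of Rpl26 (positions 118 to 177, counted from 1 at the start codon), Rps18 (312 to 371) and Rps7 (1 to 60) are given 5′ to 3′ beside their copies, read from the GRCm38 genome, with differing bases in capitals. The Gm15772 stretch is at chr5:3236548-3236607 on the plus strand, the Gm26619 stretch at chr13:97760218-97760277 on the minus strand, and the Gm6472 stretch at chrX:152910061-152910120 on the minus strand. Gm26619 itself is annotated on the plus strand, so the stretch shown under its name is antisense to it.
Rpl26: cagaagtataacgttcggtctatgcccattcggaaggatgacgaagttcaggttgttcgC
Gm15772: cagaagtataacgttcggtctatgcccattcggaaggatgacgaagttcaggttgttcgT
Rps18: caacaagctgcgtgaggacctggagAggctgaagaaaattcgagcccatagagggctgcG
Gm26619: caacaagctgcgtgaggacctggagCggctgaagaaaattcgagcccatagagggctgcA
Rps7: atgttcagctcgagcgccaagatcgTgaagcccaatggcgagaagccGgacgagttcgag
Gm6472: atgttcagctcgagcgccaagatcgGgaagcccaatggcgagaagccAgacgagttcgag

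Rpl26 (chr11:68901583-68906989) and its processed pseudogene Gm15772 (chr5:3236431-3236868) moved in opposite directions in control 2. Gm15772 had 154 and 214 CPM in cko libraries against 160 and 12.7 CPM in control libraries, so the library with the highest Rpl26 value had the lowest value of the copy. The sum of Rpl26 and its annotated copies was 340 and 468 CPM in cko libraries against 359 and 429 CPM in control libraries. The groups of sums overlapped, and with the copies added the log2 fold change of Rpl26 was 0.04 in place of -0.48.

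Rpl34 (chr3:130726831-130730398) showed the same pattern in cko 1. Rpl34-ps1 (chr6:71124610-71124963) had 4.43 and 45.1 CPM in cko libraries against 61.2 and 44.5 CPM in control libraries, and only cko 1 was low. With all copies added, Rpl34 had 382 and 263 CPM in cko libraries against 342 and 258 CPM in control libraries, a log2 fold change of 0.10 in place of 0.27. The difference between cko 1 and the other libraries became smaller but did not vanish.

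Rps18 (chr17:33951999-33956001) had the reverse case in control 1. Its copies summed to 0.791 and 0.488 CPM in cko libraries against 29.4 and 0.514 CPM in control libraries. Most of these counts came from Gm26619, a lincRNA on chromosome 13 that contains a copy (0.104 and 0.0163 CPM in cko libraries against 18.8 and 0.0332 CPM in control libraries), and from the pseudogene Gm6436 (0.181 and 0.179 CPM in cko libraries against 9.92 and 0.182 CPM in control libraries). The gene with its copies had 532 and 460 CPM in cko libraries against 423 and 423 CPM in control libraries, which still did not overlap, and the log2 fold change was 0.23 (edgeR adjusted p = 0.449).

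The copies of Rps7 (chr12:28630854-28635953) summed to 21.3 and 118 CPM in cko libraries against 88.5 and 105 CPM in control libraries. With them added, the values were 643 and 777 CPM in cko libraries against 620 and 699 CPM in control libraries. The groups, which did not overlap for the gene alone, then overlapped, and the log2 fold change was 0.11 in place of 0.19. The Rps7 copy Gm6472 lies on the X chromosome and had 14.6 CPM in cko 1, the library with Xist. Rpl3-ps1, an X-linked copy of Rpl3, had 204 and 114 CPM in cko libraries against 208 and 111 CPM in control libraries, higher in both first replicates. The part of sex in the values of Gm6472 and Rpl3-ps1 was not tested. The copies set against Rpl26, Rpl34, Rps18 and Rps13 lie on autosomes. The copy Rps13-ps1 had 23.6 and 0 CPM in cko libraries against 0.0522 and 0 CPM in control libraries, where a count of 0 allows up to 0.0488 CPM in cko 2 and 0.0497 CPM in control 2. Rps13 itself had 334 and 324 CPM in cko libraries against 380 and 321 CPM in control libraries. By contrast, the copies of Rpl35a summed to under 1 CPM in each library, so its spread did not mirror that of its annotated copies. With the counts of copies added to every member, 0 members were called and the median stayed at -0.02. Why the counts of gene and copy stood apart in these libraries was not tested.

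**Figure D2:**
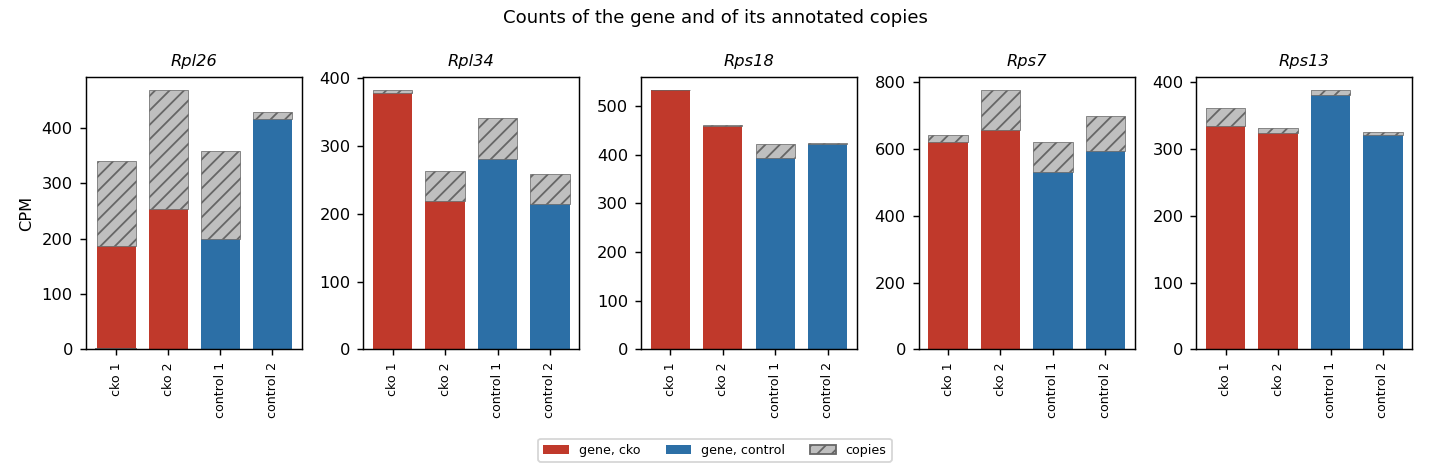
CPM of 5 members (solid, red for cko and blue for control) and of their annotated copies (hatched, stacked on top) in each library, with a separate axis from 0 for each gene. For Rpl26 the copies nearly vanish in control 2 (13.0 CPM, against 154 to 214 CPM in the other libraries) where the gene itself is highest, and for Rpl34 they nearly vanish in cko 1 (4.46 CPM).

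Members separated by replicate number more often than by genotype. Both first replicates were above both second replicates for 36 of 83 members (43.4%), against 20.5% of all genes, and below them for 27 members (32.5%), against 18.2% of all genes. The other 20 members had another order. Across the 83 members, the log2 ratio of replicate 1 to replicate 2 in cko correlated with that in control (Pearson r = 0.78), while over all 16436 genes r was 0.19. These are correlations across genes, which share their libraries and are no independent replicates. The highest value came from control 1 for 41 members, from cko 2 for 33, from cko 1 for 7 and from control 2 for 2.

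By the mean of both ratios, the highest members were Rpl22l1, a paralog of Rpl22, with log2 ratios of 0.80 in cko and 1.00 in control, and Rpl35a, with 1.42 in cko and 0.33 in control. Rpl36al followed with 0.54 and 0.66, Rpl34 with 0.79 and 0.39, and Rpl39 with 0.32 and 0.69, in cko and control. The lowest were Rpl26 with -0.45 in cko and -1.06 in control, Rpl23a with -0.46 and -0.21, and Rps26 with -0.41 and -0.23. Over the 83 members the mean ratio ran against the mean length of coding transcripts (Spearman's rho = -0.34, a description only). First replicates were also the deeper libraries with fewer mitochondrial counts, and whether the replicate numbers mark a batch is not stated. Meninges and choroid plexus markers were higher in both first replicates (71.75 CPM in cko 1 and 61.8 in control 1, against 32.6 in cko 2 and 37.2 in control 2). GCp markers were lower in both (5427 in cko 1 and 5722 in control 1, against 5965 in cko 2 and 5756 in control 2). The part of these differences in the replicate order was not tested.

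**Figure D3:**
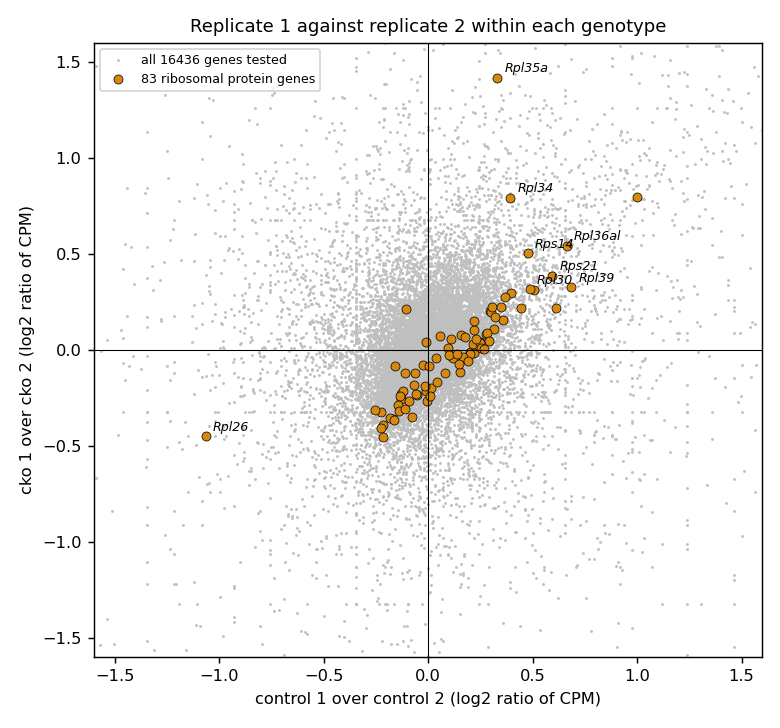
Log2 ratio of CPM in replicate 1 over replicate 2 within cko (vertical axis) and within control (horizontal axis) for the 83 ribosomal protein genes (orange) and all genes tested (grey), of which 456 fall outside the axes. Most orange points lie along a rising band (r = 0.78), with Rpl35a, Rpl34 and Rpl26 away from it.

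Levels of different members were compared per length, as CPM per kilobase of merged exons (RPKM). Of the 77 core members, 62 were among the 500 genes with the most counts. RPKM means over the 4 libraries ran from 54.6 (Rpl35a) to 1263 (Rplp1) with a median of 267. Rplp1 had 1336 and 1167 RPKM in cko libraries against 1407 and 1143 RPKM in control libraries, above every value of the next gene, Rps15 (915 and 1048 RPKM in cko libraries against 1015 and 1008 RPKM in control libraries). Rps3a1 followed with a mean of 959 RPKM and was not separated from Rps15. Rplp0 (854) and Rpl4 (787) came next, and their library ranges overlapped. Of the 50-base stretches of these genes, 62.0% (Rplp1), 39.5% (Rps15), 78.8% (Rps3a1), 41.8% (Rplp0) and 16.5% (Rpl4) occurred elsewhere in the genome. The part of such copies in the order was not tested.

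This order depended on the length used, because many loci annotate long alternative transcripts. With the mean length of coding transcripts, core members ran from 109 (Rpl24) to 1731 (Rpl13a) with a median of 667, and the 6 highest were Rpl13a, Rplp0, Rps12, Rplp1, Rps9 and Rpl41. Only 2 genes, Rplp1 and Rplp0, were among the 6 highest by both lengths. Rpl35a, the lowest core member by merged exons, which span 3526 bases against a mean coding transcript of 507.6 bases, had 379 by the second measure. Exons of 16 members overlapped other genes over more than 10% of their length, and for 9 of these part of the overlap was with a gene on the opposite strand. No source used here states whether counting used the strand, so reads of such pairs may not have been told apart. Rpl24 shared 47.0% of its exonic bases with Gm28037, a gene model on the same strand, so its counts may be uncertain whatever the strand setting. These overlaps and lengths come from the annotation used here (GENCODE vM21). The paper counted with another Ensembl release, in which they were not checked.

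**Figure D4:**
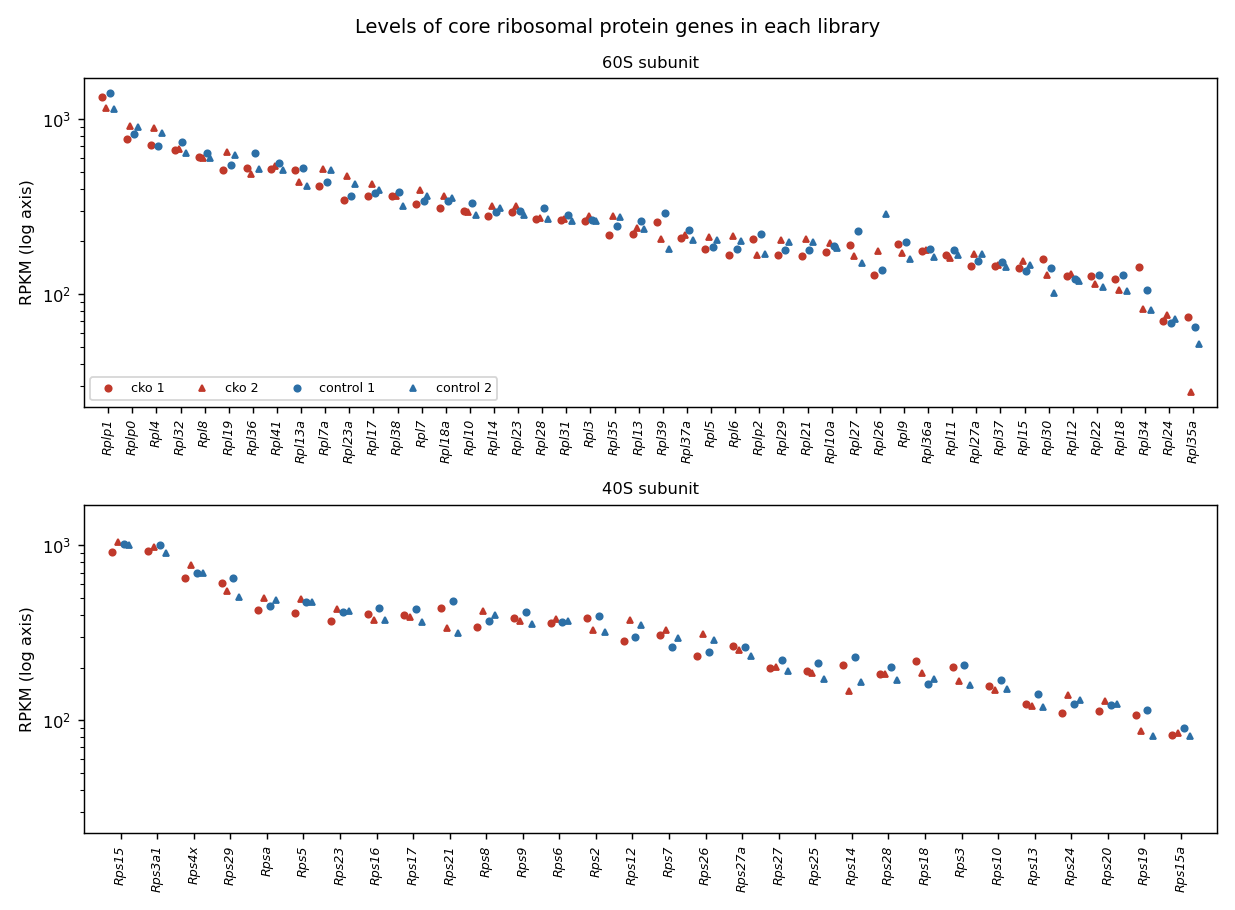
RPKM (log axis) of 76 core members in each library (red for cko, blue for control, circles for replicate 1, triangles for replicate 2), by subunit and from the highest to the lowest mean. The colours interleave for nearly all genes, and cko 2 stands low for Rpl35a (27.7 RPKM).

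Of the tissue-restricted and duplicated forms, 3 were nearly absent and 5 were expressed. Rpl10l, a testis paralog of Rpl10, had 0 counts in all 4 libraries, where 3 counts would be 0.0389 and 0.0488 CPM in cko libraries and 0.0392 and 0.0497 CPM in control libraries. Rpl3l, a striated muscle paralog of Rpl3, had at most 0.0163 CPM in any library. Rpl39l, another testis form, had 0.104 and 0.211 CPM in cko libraries against 0.0653 and 0.0663 CPM in control libraries and was not tested. Among the expressed forms, Rps27rt had 169 and 159 CPM in cko libraries against 188 and 154 CPM in control libraries, and 91.1% of its 50-base stretches occurred elsewhere in the genome. Rpl22l1 had 95.8 and 55.2 CPM in cko libraries against 94.2 and 47.1 CPM in control libraries. Rps27l, a p53 target, had 66.8 and 57.5 CPM in cko libraries against 74.6 and 54.8 CPM in control libraries. The 5 tested genes of this kind had estimates from -0.06 to 0.10 and 0 were called. The lowest tested member was Rps19bp1, with 20.6 and 20.0 CPM in cko libraries against 21.4 and 21.6 CPM in control libraries.

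Rows with symbols that begin with Rpl or Rps and end in -ps, with or without a number, were taken as ribosomal protein pseudogenes by symbol only. They numbered 239, among them the 6 protein-coding -ps genes left out of the members, and 54 of them were tested. None was called in edgeR's test, against 1.58% of all genes, and 0 had an unadjusted p under 0.05, against 13.6%. Their median log2 fold change was -0.15. Their CPM summed to 538 and 349 in cko libraries against 603 and 349 in control libraries, so this sum was higher in both first replicates.

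The machinery around the ribosome was read from lists of genes, beside 1.58% of all genes called, 13.6% with an unadjusted p under 0.05, 49.9% with an estimate above 0 and 50.1% below 0. Fau, a 40S protein made as a fusion with a ubiquitin-like protein, had 313 and 323 CPM in cko libraries against 378 and 344 CPM in control libraries (log2 fold change -0.18, edgeR adjusted p = 0.521). Rack1, a 40S scaffold, had 881 and 978 CPM in cko libraries against 899 and 982 CPM in control libraries, and neither was called. Of 37 translation factors 0 were called (median log2 fold change -0.04), and Eef1a1, which brings aminoacyl-tRNA to the ribosome, had 7867 and 10720 CPM in cko libraries against 8415 and 10420 CPM in control libraries. Of 20 RNA polymerase I genes 0 were called (median -0.003). Of 49 nucleolar assembly factors 0 were called, with 43 estimates above 0 and a median of 0.05, and nucleolin (Ncl) had 942 and 1037 CPM in cko libraries against 868 and 959 CPM in control libraries. Chaperones and importers of ribosomal proteins (12 tested) had 0 calls, and so had the 10 genes of the Myc and p53 list, where Mycn, a target of Sonic hedgehog signalling, had 180 and 158 CPM in cko libraries against 139 and 157 CPM in control libraries. The 77 mitochondrial ribosomal proteins had 0 calls, 63 estimates below 0 and a median of -0.09. At an unadjusted p under 0.05 there were 3 nucleolar factors, 2 genes of the mTORC1 list described next and 1 gene each of the RNA polymerase I, Myc and p53, and mitochondrial lists, and 0 of the translation factors and the chaperones.

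The single call in these lists was Deptor, an inhibitor of mTOR, among 20 genes of mTORC1, the S6 kinases and LARP1. Deptor had 8.81 and 8.72 CPM in cko libraries against 3.38 and 3.70 CPM in control libraries. Its log2 fold change was 1.31 (standard error 0.17, edgeR adjusted p = 0.0243), and the groups did not overlap. Of the other 19 genes none was called, and the median of the list was 0.05. The summed markers of muscle, endothelium, oligodendrocyte lineage, and Purkinje cells and interneurons were higher in the same libraries as Deptor. Those of astrocytes and Bergmann glia were lower there. The part of any of these cells in the difference of Deptor was not tested.

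Some sequence features at annotated start sites, which the choice by symbol did not use, were more frequent among members than among all genes, though none was found in most members. RefSeq start sites (GRCm38.p6) were at hand for 66 of the 86 members and 27025 genes in all. A cytidine at the annotated start followed by at least 4 pyrimidines, the form of a TOP tract, was found in 13 of 66 members (19.7%), against 2.49% of all genes, and with the cytidine within 5 bases of the start in 29 members (43.9%), against 18.5%. Windows of 30 bases, 15 on each side of the annotated start, are shown 5′ to 3′ for 4 members to let the tract be seen, with the tract in capitals. They lie at chr17:33955651-33955680 (minus strand) for Rps18, chr4:86857353-86857382 (minus strand) for Rps6, chr7:141447636-141447665 (plus strand) for Rplp2 and chr11:68901551-68901580 (plus strand) for Rpl26, the last with no such tract in reach of the start.
Rps18: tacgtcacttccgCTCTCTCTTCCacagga
Rps6: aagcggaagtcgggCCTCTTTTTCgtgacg
Rplp2: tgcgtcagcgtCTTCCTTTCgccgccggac
Rpl26: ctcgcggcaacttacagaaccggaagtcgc

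In the 300 bases around each start (250 before and 50 after), the motif CCGGAAG or its reverse complement CTTCCGG, bound by the ETS factor GABP, occurred in 25 of 66 members (37.9%), against 9.12% of all promoters, and its reverse complement opens with pyrimidines that can overlap a TOP tract. The motif AAGATGGC or its reverse complement GCCATCTT, bound by YY1, occurred in 5 members (7.58%), against 2.88%. A match describes these letters only, and annotated starts can differ from the start a cell uses.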

How the data were processed

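GCp RNA of 4 libraries (2 cko, 2 control) was analysed. Chromatin samples of the series were not used here. Per the labels and the study's methods, the authors used Trim Galore 0.4.1 for trimming and TopHat2 2.0.14 for alignment (mm10), and deposited counts per Ensembl gene from HTSeq 0.6.1p1 (strict intersection, alignment quality of at least 3). No source used here states the strand setting. Counts were analysed as deposited. Of 38924 gene IDs, 37607 matched GENCODE vM21 (GRCm38), which gave symbols, positions and lengths. Genes kept by filterByExpr (16436) were fitted with edgeR 4.0.16 (R 4.3.3, limma 3.58.1; TMM, robust glmQLFit, genotype only, two-sided) and DESeq2 1.42.0 as an alternative. P-values were adjusted over all genes tested, with a threshold of 0.05.

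CPM and RPKM were computed from the deposited counts. Copies were found as exact matches of exonic 50-base stretches to the genome, and a copy row shared at least 50 of them. Totals were 61836588 to 77346481 counts, and the floor of 3 counts covers counting error only. Python 3.11.15, Biopython 1.88 and bedtools 2.31.1 were used.

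The members, the gene lists and the rules were chosen with earlier results of these data known. Named were the highest and lowest fold changes, the highest and lowest RPKM means, preset groups of members, called genes of each list or else its highest by CPM, and Chd7, Xist and Ddx3y as checks (Ddx3y had 0 CPM in cko 1 and 68.2 in cko 2, against 69.1 and 63.7 in control 1 and control 2). Other members named by role were chosen after their values were seen. The 4 lowest by RPKM were Rps19bp1 (19.3), Rpl22l1 (36.7), Rpl7l1 (38.1) and Rpl35a (54.6). Alternatives were other scalings, DESeq2, no count filter, a replicate block, each library left out, no robust option and other memberships. Protein sequences were not analysed here, and some genes that these rules cover are not reported here.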

Additional observations from a re-analysis of the deposited data

How the results depend on the processing

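The number of members called was 0 in all 12 alternative fits except the one without cko 1. Over the fits that left out 1 library it ran from 0 to 1, and the call, lower in cko, was Rpl35a without cko 1 (-1.07). The median log2 fold change of members ran from -0.07 (without control 2) to 0.04 (without control 1). Of 108 values for the 9 members with the highest or lowest estimates named above under these settings, 101 kept their direction and side of the threshold, 6 reversed and 1 passed the threshold. With 1 library left out, Rpl34 ran from -0.17 (without cko 1) to 0.61, Rpl26 from -0.92 to 0.14 (without control 2), Rpl35a from -1.07 (without cko 1) to 0.34 (without cko 2), and Rps14 from -0.42 to 0.10 (without control 1, and 0.08 without cko 2). With copies added, a setting chosen after seeing the data, Rpl26 was 0.036. Without mitochondrial counts the mean share of counts in cko was 4.53%, in place of 4.40%, and both cko libraries (4.524% and 4.530%) were then above both control libraries (4.519% and 4.290%). The median RPKM of core members was 667 with coding transcript lengths, in place of 267.

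Counts of called genes over all genes varied more: 260 in edgeR's test as reported, 891 with DESeq2, 727 without the filter, 1010 with the replicate block, and 115 (without control 2) to 712 (without cko 2) with 1 library left out. With TMM factors left out, also chosen after seeing the data, the median of all genes shifted to 0.05 and that of members to 0.02, so that the sign of small estimates rests on the scaling.

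Replicate numbers are shared between genotypes, but 2 pairs do not establish a pairing. Deviations of same-numbered libraries correlated at 0.19 over all genes and 0.78 over members, without matching for level. With the replicate number as a block, 0 of 83 members were called, against 1010 of all 16436 genes, and the member median was -0.02. In that fit 3 members had an unadjusted p under 0.05, as had at least the 1010 called genes. The full share of all genes at that threshold was not counted.

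With 2 libraries per genotype, the interval of each gene reached a median of 0.29 on the log2 scale to either side. Changes smaller than this interval could not be seen. The intervals are not adjusted for the number of genes tested, so a change beyond them could still miss the threshold. Rps18 exceeded its own interval width (0.28 against 0.27 to either side) and was not called (edgeR adjusted p = 0.351). Reads of near-identical copies cannot be assigned with certainty, so levels of single members are uncertain.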
